A study of Mus musculus with 5 samples.

Results

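The smooth muscle and contractile genes are a set of 35 genes, listed by symbol, that encode the contractile apparatus of the gut muscle wall, its regulators, its cytoskeletal anchors and the transcription factors that drive it. A gene was counted as measured when a probe on the array carried a RefSeq accession of that gene. Of the 35 genes, 30 had a probe, and all 30 passed the filter that a probe be found by the scanner software on at least 2 arrays, so the filter removed none of them. They are 30 of 15597 named genes on the array. Myl9, Actn1, Ppp1r12b, Flna and Hspb6 had no probe named here and are not analysed. The study compared villin-TLR4 mice, in which the villin promoter places Toll-like receptor 4 in the intestinal epithelium, with WT littermates, all on a C57Bl6 background and 10 weeks old at the start. The samples were colon tissue without tumour, taken on day 56, 2 of villin-TLR4 and 3 of WT littermate mice. Every mouse received the carcinogen azoxymethane (AOM) at 7.4 mg/kg and then 2 cycles of dextran sulfate sodium (DSS) in the drinking water, of 7 and 5 days. The villin-TLR4 samples came from mice given 1.5% DSS and the WT littermate samples from mice given 3% DSS, so genotype and DSS dose cannot be told apart. Villin-TLR4 replicate 1 is labelled female and replicate 2 male, and the 3 WT littermate samples are labelled female. The transgene is driven in epithelial cells, so muscle cells are not where it is placed, and each sample is bulk tissue that holds both.

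Smooth muscle contracts when calcium, bound to calmodulin, activates myosin light-chain kinase, which phosphorylates the light chain of smooth muscle myosin and lets it pull on actin filaments. A light-chain phosphatase reverses this, and a kinase activated by cyclic GMP favours relaxation. In the colon this machinery fills the circular and longitudinal layers of the outer muscle coat and the thin muscle sheet under the mucosa. Serum response factor (Srf) with its coactivator myocardin (Myocd) drives many of these genes through a short DNA element named the CArG box, an A and T stretch between a pair of C and a pair of G bases.

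Promoter sequences show where such boxes lie in genes of the set. Windows of 300 bases, from 250 before to 50 after the gene start, were available for 31 of the 35 genes in RefSeq's annotation of GRCm38.p6. A CArG box lay in a window of 5 of the 31 genes (16.1%), namely Srf, Vcl, Fhl1, Ldb3 and Myl9, against 488 of 27025 genes with a window (1.81%). The element reads the same on both strands, so 1 search covers both. When a box-like match with a single G or C inside the A and T stretch was also allowed, 11 of the 31 genes had one (35.5%), against 3050 of all genes (11.3%), with Acta2, Cacna1c, Ckm, Hspb6, Synm and Pdlim3 added. A match describes these letters only. The 5 windows printed next were chosen because Acta2 is the alpha smooth muscle actin gene, Srf encodes the factor that binds the box, Vcl and Fhl1 were high on the array on which most genes of the set were highest, and Ldb3 was the gene of the set that was highest on the array on which most others were lowest. Each is written 5′ to 3′ on the strand of the gene, with the box or box-like match in capitals. They lie at chr19:34255324-34255623 on the minus strand (Acta2), chr17:46556113-46556412 on the minus strand (Srf), chr14:20929148-20929447 on the plus strand (Vcl), chrX:56779433-56779732 on the plus strand (Fhl1) and chr14:34588632-34588931 on the minus strand (Ldb3).
Acta2 promoter: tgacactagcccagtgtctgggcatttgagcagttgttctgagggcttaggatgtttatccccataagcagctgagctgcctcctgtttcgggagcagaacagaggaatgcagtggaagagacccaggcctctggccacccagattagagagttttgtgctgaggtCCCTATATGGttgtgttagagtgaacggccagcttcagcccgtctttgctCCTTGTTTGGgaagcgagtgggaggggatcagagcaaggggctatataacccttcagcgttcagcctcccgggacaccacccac
Srf promoter: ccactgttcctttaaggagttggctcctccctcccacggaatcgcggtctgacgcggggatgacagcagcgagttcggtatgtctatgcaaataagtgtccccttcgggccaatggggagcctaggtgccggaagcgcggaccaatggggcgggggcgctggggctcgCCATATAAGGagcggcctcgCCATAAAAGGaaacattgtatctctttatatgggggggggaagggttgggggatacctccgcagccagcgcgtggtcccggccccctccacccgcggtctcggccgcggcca
Vcl promoter: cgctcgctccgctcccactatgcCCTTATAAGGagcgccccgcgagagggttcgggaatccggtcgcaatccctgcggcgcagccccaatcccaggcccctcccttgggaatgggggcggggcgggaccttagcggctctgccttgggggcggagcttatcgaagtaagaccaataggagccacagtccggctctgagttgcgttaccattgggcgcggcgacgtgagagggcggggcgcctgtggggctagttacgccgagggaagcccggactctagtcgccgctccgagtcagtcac
Fhl1 promoter: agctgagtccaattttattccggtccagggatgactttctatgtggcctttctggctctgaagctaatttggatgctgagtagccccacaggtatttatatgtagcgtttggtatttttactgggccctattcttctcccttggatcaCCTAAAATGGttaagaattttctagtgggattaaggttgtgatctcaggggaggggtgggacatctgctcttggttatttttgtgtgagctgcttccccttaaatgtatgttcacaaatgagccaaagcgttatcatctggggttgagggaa
Ldb3 promoter: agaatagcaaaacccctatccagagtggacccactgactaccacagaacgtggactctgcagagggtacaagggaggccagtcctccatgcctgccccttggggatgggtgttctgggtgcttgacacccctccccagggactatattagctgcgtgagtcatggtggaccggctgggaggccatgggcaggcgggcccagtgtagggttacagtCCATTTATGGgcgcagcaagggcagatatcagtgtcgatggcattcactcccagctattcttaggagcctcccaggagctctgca
The 2 matches of Acta2 are box-like, each with a single G or C inside the A and T stretch, while Srf carried 2 full boxes close together. Vcl, Fhl1 and Ldb3 carried 1 full box each in these windows.

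The values are log2 intensities after background correction and quantile normalization, 1 array per sample, so they compare arrays for a gene and not genes with each other. One array, that of WT littermate replicate 1, differed from the rest in quality. On it 13352 of 35078 gene probes were found and 1240 spots were marked bad, against 16380 to 19509 found and 0 to 4 bad on the other 4 arrays. The 75th percentile of its background-subtracted signal was 116, while the other arrays had 256 to 481. The genes of the set were found on 30 and 29 of 30 probes on the villin-TLR4 arrays, and on 23, 30 and 30 on the WT littermate arrays 1, 2 and 3. Scans fell on 3 days, with day 1 for villin-TLR4 replicate 1, day 3 for the second sample of each genotype, and day 2 for the other two WT littermate samples. Ddx3y, a gene of the Y chromosome, read 6.05 in villin-TLR4 replicate 1 and 8.74 in replicate 2, against 6.04 to 6.13 in the WT littermate samples, which follows the sex labels. Results are given with all 5 arrays and, where the direction or the size depended on it, without WT littermate replicate 1.

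No contractile gene passed the test for a difference between villin-TLR4 and WT littermate colon. The larger differences lay among the WT littermate samples themselves: muscle genes were low as a block on replicate 1 and high on replicate 2, and both villin-TLR4 samples lay between them. In the limma fit over 15051 genes or unnamed probes, 0 passed an adjusted p of 0.05 (0%), and none of the 30 contractile genes did, where the lowest adjusted p among them was 0.87. At an unadjusted p of 0.05, 730 of the 15051 passed (4.85%) and 0 of the 30. No contractile gene had villin-TLR4 and WT littermate samples that did not overlap, while 26.1% of all genes tested did not overlap. The villin-TLR4 mean was higher for 24 of the 30 genes, against 50.9% of all genes, and the median difference, villin-TLR4 minus WT littermate, was 0.30 on the log2 scale for the 30 genes and 0.01 over all genes. That shift depended on WT littermate replicate 1: without it the villin-TLR4 mean was lower for 15 of the 30 genes, against 51.9% of all genes, and the median difference was -0.02.

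**Figure D1:**
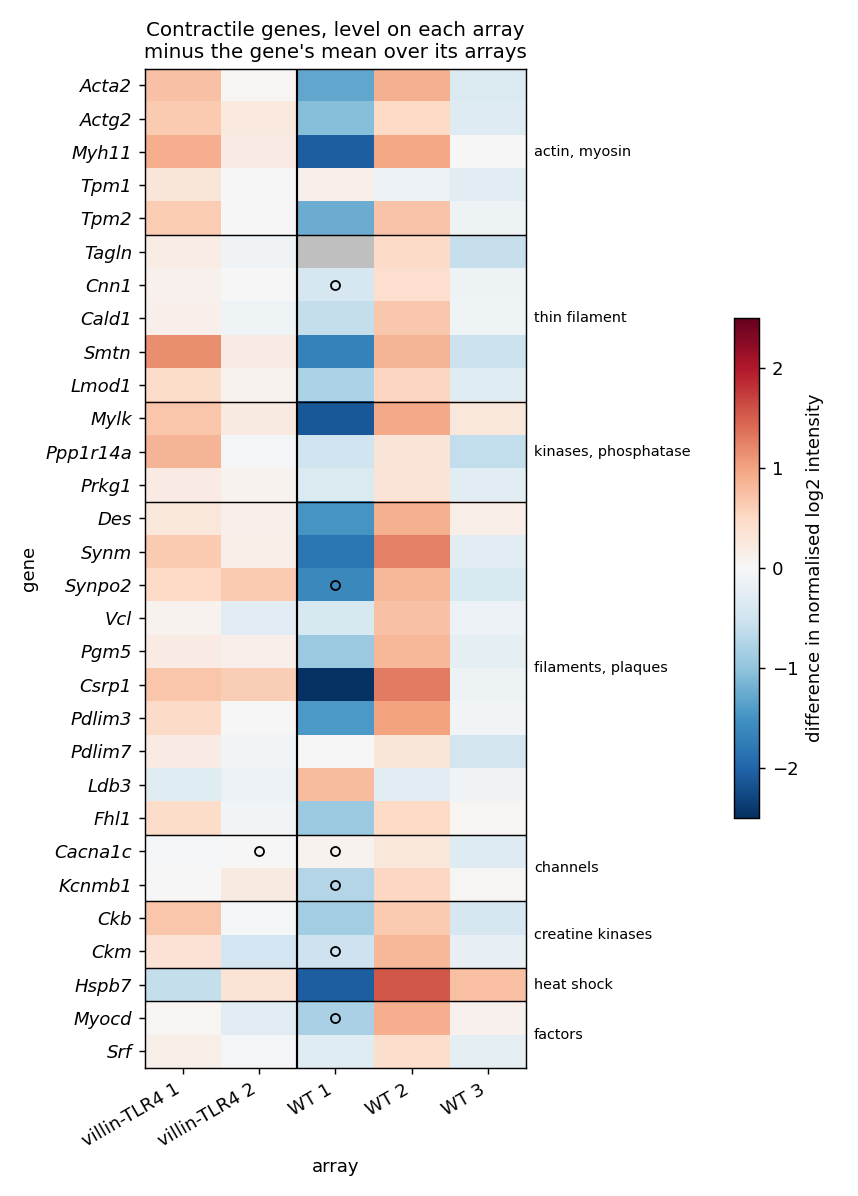
Heat map of the 30 measured contractile genes (rows, grouped by role) on the 5 arrays (columns, villin-TLR4 left of WT littermate), coloured by the log2 level minus the gene's mean over its arrays. Open circles mark spots that were not found and grey marks Tagln on WT littermate replicate 1, where the spot was marked bad. The column of WT littermate replicate 1 is low for most genes and that of replicate 2 is high.

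On their brightest probes, the genes of actin, myosin and tropomyosin other than Tpm1 were lowest on WT littermate replicate 1. Myh11, the heavy chain of smooth muscle myosin, read 14.31 and 13.60 in villin-TLR4 colon, against 11.34, 14.36 and 13.40 in WT littermate colon. Replicate 1 of the WT littermates lay far under every other sample, and the other 2 WT littermate values bracketed the villin-TLR4 ones. The difference was 0.92 ± 0.84 (SE; adjusted p = 0.87, limma with Benjamini-Hochberg adjustment) and 0.07 without WT littermate replicate 1. Acta2, alpha smooth muscle actin, whose promoter is printed above, read 12.04 and 11.36 in villin-TLR4 samples and 10.01, 12.20 and 10.94 in WT littermates. The groups overlapped, with a difference of 0.65 ± 0.63 (SE), or 0.13 without WT littermate replicate 1. A second, dimmer Acta2 probe, found on all 5 arrays, read 8.37 and 7.60 in villin-TLR4 samples, against 7.65, 8.34 and 7.295 in WT littermates. That probe was lowest on WT littermate replicate 3, not replicate 1, and differed by 0.22. Actg2, the gamma actin of enteric muscle, read 15.11 and 14.71 in villin-TLR4 colon and 13.39, 14.96 and 14.14 in WT littermate colon, and its second-highest value was a WT littermate one. Its difference was 0.74 ± 0.47 (SE; unadjusted p = 0.159, adjusted p = 0.87, limma), and 0.36 without WT littermate replicate 1. Tpm2, beta tropomyosin, which lies along the actin filament, read 15.02 and 14.39 in villin-TLR4 samples, against 13.15, 15.09 and 14.26 in WT littermates, again low on WT littermate replicate 1 alone. A second bright probe of Tpm2 differed by 0.68 and another, dim one by -0.43, so its probes disagreed in sign. Tpm1, alpha tropomyosin, which is also made outside muscle, did not share the drop. It read 13.76 and 13.45 in villin-TLR4 samples and 13.59, 13.30 and 13.19 in WT littermates, a difference of 0.24 ± 0.25 (SE).

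The thin-filament regulators overlapped between the groups in the same way. Smtn, smoothelin, a protein of fully contractile smooth muscle, read 12.49 and 11.52 in villin-TLR4 colon and 9.64, 12.16 and 10.79 in WT littermate colon. Its difference of 1.14 ± 0.73 (SE; adjusted p = 0.87, limma) was the widest in the set and came to 0.53 without WT littermate replicate 1. A second Smtn probe, found on 4 arrays, read 9.79 and 9.36 in villin-TLR4 samples, against 6.44, 10.23 and 9.04 in WT littermates. It was low on the same array, at a background-subtracted signal of 20. Its difference was 1.01 with all arrays and -0.06 without that array, where the 2 probes disagreed in sign. Lmod1, leiomodin, which nucleates actin filaments in smooth muscle, read 8.83 and 8.46 in villin-TLR4 samples and 7.57, 8.91 and 8.08 in WT littermates. Cnn1, calponin, an actin-binding inhibitor of the myosin motor, read 7.37 and 7.27 in villin-TLR4 samples, against 6.85, 7.69 and 7.13 in WT littermates, and its spot was not found on WT littermate replicate 1. Cald1, caldesmon, another such inhibitor, which other cell types also make, read 7.85 and 7.61 in villin-TLR4 samples and 7.13, 8.39 and 7.61 in WT littermates. In both genes the villin-TLR4 values lay within the WT littermate range. Tagln, transgelin, an actin-bundling protein, read 10.31 and 10.04 in villin-TLR4 samples, against 10.61 and 9.55 in WT littermate replicates 2 and 3. Its spot on WT littermate replicate 1 was marked bad and set to missing, so its difference of 0.09 ± 0.42 (SE) rests on 2 arrays of each group. The authors' deposited table is relative to the WT littermates. In it Tagln was 1.16 and 1.09 in villin-TLR4 samples and 1.05, 1.41 and 0.68 in WT littermates. The background-subtracted scanner signal of the Tagln spot was 78 on WT littermate replicate 1 and 1764 on replicate 2. How that table came to its value for replicate 1 was not tested.

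**Figure D2:**
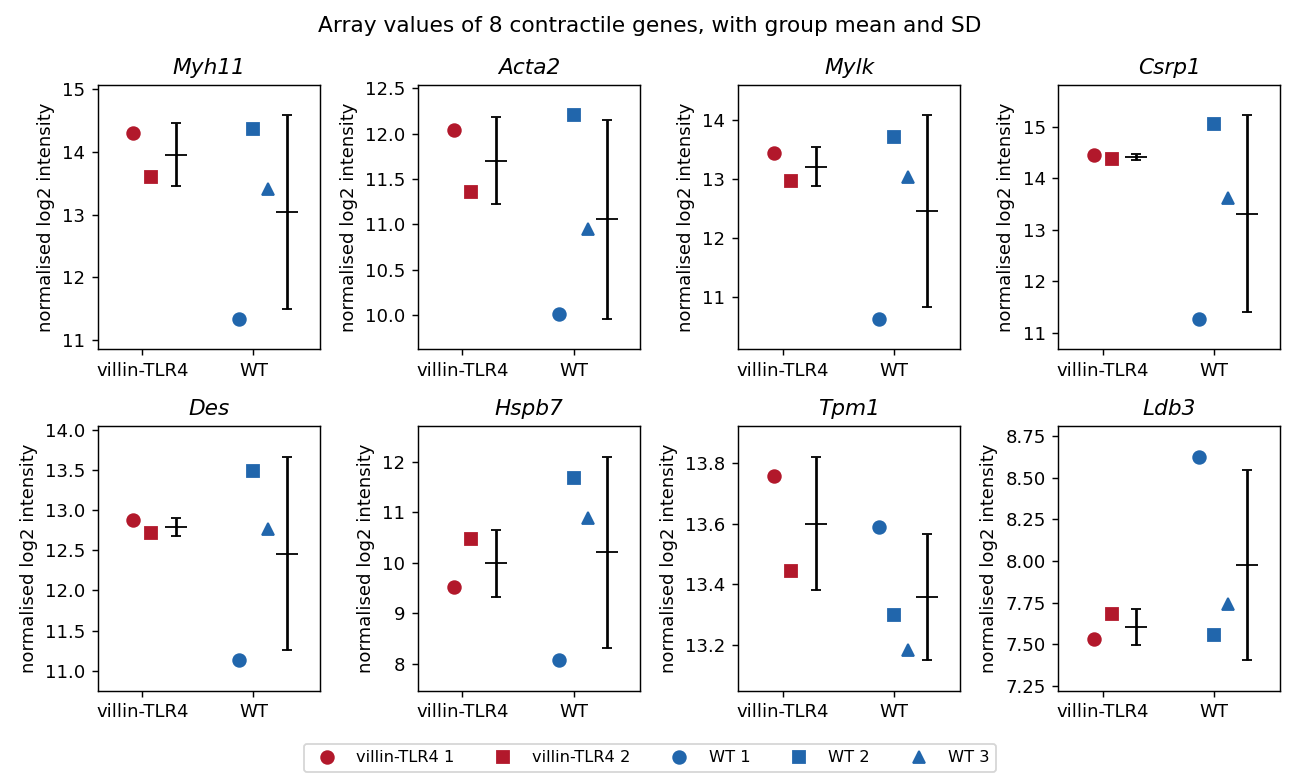
Log2 intensity of 8 contractile genes on each array (points), villin-TLR4 left of WT littermate in each panel, with the group mean and SD beside them as a bar (n = 2 villin-TLR4, n = 3 WT littermate). WT littermate replicate 1 is the lowest point for Myh11, Acta2, Mylk, Csrp1, Des and Hspb7 and the highest for Ldb3, and the ranges of the groups overlap in every panel.

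Among the enzymes that switch contraction on and off, Mylk, the light-chain kinase, read 13.44 and 12.97 in villin-TLR4 colon, against 10.62, 13.70 and 13.03 in WT littermate colon. Its value on WT littermate replicate 1 was 6.32-fold below the mean of the other 4 arrays, and 2 further Mylk probes read 10.52 and 9.49 there. The difference between groups was 0.75 ± 0.86 (SE) with all arrays and -0.16 without that array, so its direction turned. Ppp1r14a, which encodes CPI-17, an inhibitor of the light-chain phosphatase, read 10.89 and 9.99 in villin-TLR4 samples, against 9.55, 10.37 and 9.43 in WT littermates. It had the lowest unadjusted p of the set (0.156, limma; adjusted p = 0.87) with a difference of 0.66 ± 0.41 (SE). Its second probe read 9.13 and 10.40 in villin-TLR4 samples and 10.12, 10.04 and 9.14 in WT littermates and differed by 0.00, so its probes disagreed. Prkg1, the kinase activated by cyclic GMP, read 7.67 and 7.55 in villin-TLR4 samples and 7.09, 7.77 and 7.20 in WT littermates, with a difference of 0.26 ± 0.29 (SE).

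The intermediate filament and dense plaque genes anchor the contractile filaments to the cell and to each other. Csrp1, a LIM-domain protein of the smooth muscle cytoskeleton, read 14.45 and 14.37 in villin-TLR4 colon and 11.27, 15.05 and 13.62 in WT littermate colon. The villin-TLR4 samples were almost equal, while the WT littermate samples were far apart, and the value on WT littermate replicate 1 was 8.57-fold below the mean of the other 4 arrays, the deepest drop of the 29 genes with a value there. The difference between groups was 1.10 ± 1.00 (SE; adjusted p = 0.87, limma) and 0.08 without that array. Des, desmin, the muscle intermediate filament, read 12.88 and 12.72 in villin-TLR4 samples, against 11.13, 13.49 and 12.76 in WT littermates. Synm, synemin, its filament partner, read 10.52 and 10.01 in villin-TLR4 samples, against 8.05, 11.12 and 9.58 in WT littermates. Both lay inside the WT littermate range, with a difference of 0.34 ± 0.66 (SE) for Des and 0.68 ± 0.82 (SE) for Synm. Synpo2, myopodin, a Z-disc and dense body protein, read 8.19 and 8.34 in villin-TLR4 samples and 6.08, 8.51 and 7.30 in WT littermates, where the spot on replicate 1 was not found. Pgm5, aciculin, a protein of adherens junctions in muscle, read 9.23 and 9.15 in villin-TLR4 samples, against 8.11, 9.87 and 8.80 in WT littermates. Pdlim3, a PDZ and LIM protein that binds alpha-actinin, read 12.33 and 11.85 in villin-TLR4 samples and 10.41, 12.85 and 11.77 in WT littermates. In these 3 genes the order of the WT littermate replicates was the same as for Myh11.

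Vcl, vinculin, which links actin to adhesion sites in most cell types, read 12.23 and 11.88 in villin-TLR4 colon, against 11.75, 12.87 and 11.99 in WT littermate colon. Its difference was -0.14 ± 0.38 (SE), and its drop on WT littermate replicate 1 was 1.41-fold. Fhl1, a LIM protein of striated and smooth muscle, read 13.98 and 13.46 in villin-TLR4 samples and 12.59, 14.01 and 13.56 in WT littermates. Both genes, whose promoters with a CArG box are printed above, were highest on WT littermate replicate 2. Pdlim7, a PDZ and LIM protein found in many cell types, read 11.30 and 11.05 in villin-TLR4 samples and 11.12, 11.41 and 10.65 in WT littermates, with no drop on replicate 1. Its second probe differed by -0.13, opposite in sign to the 0.11 of the first. Ldb3, also called ZASP or cypher, a Z-disc protein known from striated muscle, read 7.53 and 7.68 in villin-TLR4 samples and 8.63, 7.56 and 7.74 in WT littermates. It was the gene of the set that was highest on WT littermate replicate 1, by 1.00 on the log2 scale over the mean of the other 4 arrays. That rank is one of normalized values. Its background-subtracted signal was 130 there, near the 75th percentile of 116 on that array, against 161 and 109 in villin-TLR4 samples and 147 and 232 in WT littermate replicates 2 and 3. The promoter window of Ldb3 holds a CArG box as those of Vcl and Fhl1 do. Its difference was -0.37 ± 0.37 (SE) and -0.05 without WT littermate replicate 1.

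The channels and creatine kinases were mixed. Kcnmb1, the smooth muscle beta subunit of the large-conductance potassium channel, read 7.10 and 7.34 in villin-TLR4 colon and 6.38, 7.63 and 7.14 in WT littermate colon, with the spot not found on replicate 1. Cacna1c, the pore of the L-type calcium channel, read 7.10 and 7.16 in villin-TLR4 samples, against 7.23, 7.42 and 6.82 in WT littermates. Only 1 of its 6 probes passed the filter, and that spot was found on 3 arrays, so Cacna1c was close to the limit of detection. Ckb, the brain-type creatine kinase, which smooth muscle also uses, read 12.20 and 11.46 in villin-TLR4 samples and 10.65, 12.16 and 11.10 in WT littermates, with a difference of 0.53 ± 0.49 (SE). Ckm, the muscle-type enzyme, read 7.96 and 7.11 in villin-TLR4 samples, against 7.09, 8.43 and 7.39 in WT littermates, with the spot not found on replicate 1. The difference for Ckm was -0.10 ± 0.47 (SE).

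Hspb7, a small heat shock protein of heart and muscle, was the 1 gene of the set with an unadjusted p under 0.05 (limma) once WT littermate replicate 1 was left out. Over all genes that share was 10.9%, so 1 of 30 lies under the background. Hspb7 read 9.52 and 10.46 in villin-TLR4 colon, against 8.07, 11.67 and 10.88 in WT littermate colon. With all arrays the groups overlapped and the difference was -0.22 ± 1.02 (SE). Without WT littermate replicate 1 both villin-TLR4 values lay under both WT littermate values, a lack of overlap that 42.9% of all genes had. The difference was then -1.29 ± 0.40 (SE), with an unadjusted p of 0.0203 and an adjusted p of 0.393 in limma, which misses the threshold. The authors' deposited table, drawn from the same arrays, has no value for Hspb7 on WT littermate replicate 1. It gave 0.66 and 1.47 in villin-TLR4 samples and 2.86 and 1.70 in WT littermate replicates 2 and 3.

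The transcription factors overlapped between the groups as well. Srf, whose own promoter carries 2 CArG boxes, read 10.04 and 9.85 in villin-TLR4 colon and 9.59, 10.34 and 9.65 in WT littermate colon, a difference of 0.08 ± 0.31 (SE). Its drop on WT littermate replicate 1 was 1.30-fold. Myocd, its coactivator in smooth and cardiac muscle, read 7.37 and 7.05 in villin-TLR4 samples and 6.51, 8.22 and 7.42 in WT littermates, where the spot on replicate 1 was not found. Its difference was -0.17 ± 0.50 (SE). Without that array 42.9% of all genes had groups that did not overlap. For Myocd both villin-TLR4 values then lay under the WT littermate ones, by 0.61 on average, with an unadjusted p of 0.0976 in limma. A second, dimmer Myocd probe read 6.68 and 7.02 in villin-TLR4 samples and 6.72, 6.90 and 6.73 in WT littermates, and did not show this.

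**Figure D3:**
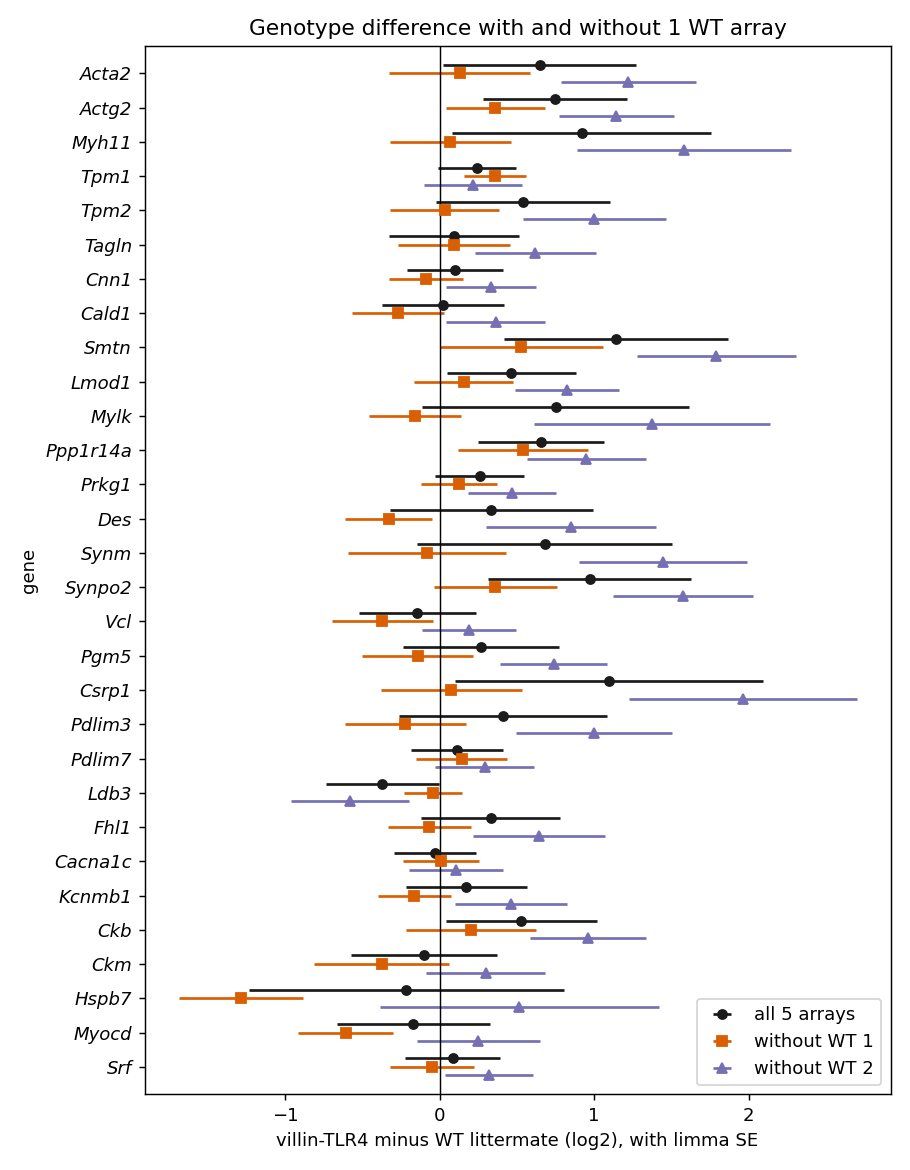
Difference between villin-TLR4 and WT littermate colon (log2, villin-TLR4 minus WT littermate) for each measured contractile gene, with all 5 arrays, without WT littermate replicate 1 and without WT littermate replicate 2; bars are standard errors from limma. The median over the genes is 0.30 with all arrays, -0.02 without replicate 1 and 0.69 without replicate 2.

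As a measure of muscle RNA in each tissue piece, the mean log2 level of 11 defining smooth muscle markers measured on all 5 arrays was taken (Acta2, Actg2, Myh11, Cnn1, Des, Mylk, Smtn, Lmod1, Synpo2, Synm and Kcnmb1). It was 11.12 and 10.75 in villin-TLR4 colon and 9.19, 11.34 and 10.39 in WT littermate colon. The order, from high to low, was WT littermate 2, villin-TLR4 1, villin-TLR4 2, WT littermate 3 and WT littermate 1. The group means were 10.94 ± 0.26 (SD, n = 2) for villin-TLR4 and 10.31 ± 1.08 (SD, n = 3) for WT littermates, so the difference of 0.63 was smaller than the WT littermate SD. Without WT littermate replicate 1 it was 0.07. WT littermate replicates 2 and 3 alone differed by 0.95, and the villin-TLR4 samples by 0.36. The full order held in 5 of the 11 markers, and the lowest step, WT littermate 3 above WT littermate 1, in 11 of 11, while each of the other steps held in 9 of 11. In bulk tissue, fewer muscle cells and less RNA per muscle cell cannot be told apart.

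The low array was seen gene by gene across the set. Of the 29 contractile genes with a value on all 5 arrays, 24 were lowest on WT littermate replicate 1, against 38.9% of all genes. The exceptions were Tpm1, Ppp1r14a, Pdlim7, Ldb3 and Cacna1c. Cnn1, Synpo2, Kcnmb1, Ckm and Myocd were among the 24, but their spots were not found there. With only probes found on all 5 arrays, 19 of 23 genes were lowest there, against 33.5% of all genes. Among all probes of the set that passed the filter and had a value there, found or not, 35 of 45 were lowest on that array. The share over all probes was not taken for this count. Next to Csrp1 and Mylk, the deepest drops against the mean of the other 4 arrays were those of Myh11 (5.99-fold), Hspb7 (5.92-fold), Synm (4.76-fold) and Smtn (4.29-fold). Synpo2 was also low there, but its spot was not found on that array, so no fold is given. The median of the set on that array lay 1.09 under the mean of the other 4, while that of all genes lay 0.09 under it. With each array scaled to its 75th percentile, which puts the median of all genes on this array 0.32 above the others, 18 of 29 contractile genes were still lowest there (22.8% of all genes), and the marker mean lay 1.03 under its mean over the 5 arrays, against 1.37 under it with quantile normalization. In the authors' deposited table, 11 of the 18 contractile genes with a value on every array were lowest on WT littermate replicate 1, against 23% of all genes. Actg2 was not among them, at 1.00 on that array and 0.78 on WT littermate replicate 3. At the other end, with quantile normalization, 24 of the 30 genes were highest on WT littermate replicate 2, against 21.7% of all genes.

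The spread followed. The median SD among WT littermate samples was 0.76 for the contractile genes and 0.35 over all genes, and between the villin-TLR4 samples it was 0.24 and 0.16. WT littermate replicates 1 and 3 were scanned on the same day, and there 24 of 29 contractile genes were lower on replicate 1, with a median of -0.75. The share over all genes was not taken for that pair, so no conclusion is drawn from the count. Against the mean of the other 4 arrays, the median of all genes on replicate 1 was -0.09. On the other shared day, villin-TLR4 replicate 2 minus WT littermate replicate 2 gave a median of -0.66 for the contractile genes, -0.04 over all genes and -0.59 for the marker mean. Within that day the direction was thus opposite to the comparison of all arrays, with 1 sample of each genotype and of different sex.

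The comparison turned on which WT littermate sample was in it. Without WT littermate replicate 1, 1 of the 30 genes passed an unadjusted p of 0.05 (Hspb7), against 10.9% of all genes, and 3 had groups that did not overlap, against 42.9% of all genes. These were Hspb7 and Myocd, lower in villin-TLR4 colon, and Tpm1, higher by 0.36. The sign of the difference turned for 11 genes. It became negative for Mylk, Des (-0.33), Cald1 (-0.27), Pdlim3 (-0.22), Kcnmb1 (-0.17), Pgm5 (-0.14), Cnn1 (-0.09), Synm (-0.09), Fhl1 (-0.07) and Srf (-0.05), and for Cacna1c it came to 0.007 on the positive side. Among genes that kept their sign, the difference came to 0.36 for Synpo2, 0.03 for Tpm2, 0.16 for Lmod1, 0.20 for Ckb and 0.13 for Prkg1, all smaller than with 5 arrays, and to -0.37 for Vcl and -0.38 for Ckm, both larger in size. No gene of the array passed the adjusted threshold in that fit (0%), where the lowest adjusted p was 0.113 and 1639 genes had an unadjusted p under 0.05. Without WT littermate replicate 2, the array with the most muscle signal, the villin-TLR4 mean was higher for 29 of the 30 genes, against 52.5% of all genes, with a median of 0.69. That array was the highest for 24 of the 30 genes, so leaving it out raised their differences by construction, and no conclusion is drawn from the counts. In that fit 9 of the 30 passed an unadjusted p of 0.05, against 4.75% of all genes, and 18 did not overlap, against 40.5%. The 9 were Smtn (1.79), Synpo2 (1.58), Actg2 (1.14), Acta2 (1.22), Synm (1.45), Csrp1 (1.96), Ckb (0.96), Ppp1r14a (0.95) and Lmod1 (0.82), given as log2 differences, and each had an adjusted p of 0.771 in limma.

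Of 38 further genes of smooth muscle and contraction that are not in the set, 32 were measured, and 0 passed the adjusted threshold. The villin-TLR4 mean was higher for 23 and lower for 9, against 50.9% higher over all genes, with a median difference of 0.14, and 19 of 32 were lowest on WT littermate replicate 1, against 38.9% of all genes. At an unadjusted p of 0.05, 2 of the 32 passed, against 4.85% of all genes, a share near that background. Without overlap between the groups, 3 of the 32 were higher and 1 was lower in villin-TLR4 colon, against 26.1% of all genes in either direction. Gucy1a1, the alpha subunit of the nitric oxide receptor that makes cyclic GMP, read 9.60 and 9.13 in villin-TLR4 colon and 7.63, 8.55 and 8.48 in WT littermate colon. The groups did not overlap, with a difference of 1.14 ± 0.36 (SE; unadjusted p = 0.0176, adjusted p = 0.87, limma) and 0.85 without WT littermate replicate 1. Gucy1b1, the beta subunit of the same receptor, read 8.57 and 8.48 in villin-TLR4 samples, against 6.41, 7.94 and 8.23 in WT littermates, also without overlap. Its difference was 1.00 ± 0.54 (SE; unadjusted p = 0.113, limma), and 0.44 without WT littermate replicate 1. Pcp4, a calmodulin-binding peptide, read 7.39 and 6.61 in villin-TLR4 samples and 8.05, 8.95 and 7.59 in WT littermates, a difference of -1.20 ± 0.46 (SE; unadjusted p = 0.0381, adjusted p = 0.87, limma). Its spot was not found on villin-TLR4 replicate 2, at a background-subtracted signal of 23, so its difference rests in part on an undetected spot. Neither subunit nor Pcp4 passed the adjusted threshold. Rhoa, Rock1 and Myl6, which most cell types make, differed by 0.06, -0.05 and -0.15.

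Markers of other cells of the gut wall were read on the same arrays as list means. The 7 measured genes of enteric neurons and glia averaged 7.46 and 7.39 in villin-TLR4 colon and 6.54, 7.95 and 7.65 in WT littermate colon, and all 7 were lowest on WT littermate replicate 1. Snap25, a protein of synaptic vesicle fusion, read 9.36 and 9.24 in villin-TLR4 samples, against 6.76, 9.92 and 9.21 in WT littermates. Interstitial cells of Cajal, the pacemakers of the muscle coat, averaged 9.24 and 9.11 in villin-TLR4 samples and 7.45, 9.02 and 9.12 in WT littermates over their 3 genes with a value on every array. Of these, Kit, their growth factor receptor, read 10.19 and 10.00 in villin-TLR4 samples and 6.76, 8.83 and 9.80 in WT littermates. Both lists of the muscle coat were thus low on the array on which the contractile genes were low. Pericyte markers averaged 8.11 and 8.09 in villin-TLR4 samples and 7.81, 8.20 and 7.99 in WT littermates. Fibroblast markers averaged 10.73 and 10.67 in villin-TLR4 samples, against 10.82, 11.10 and 10.62 in WT littermates. Endothelial markers averaged 8.55 and 8.64 in villin-TLR4 samples and 8.67, 8.64 and 8.48 in WT littermates. The pericyte list was lowest on WT littermate replicate 1, while the fibroblast and endothelial lists were not.

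**Figure D4:**
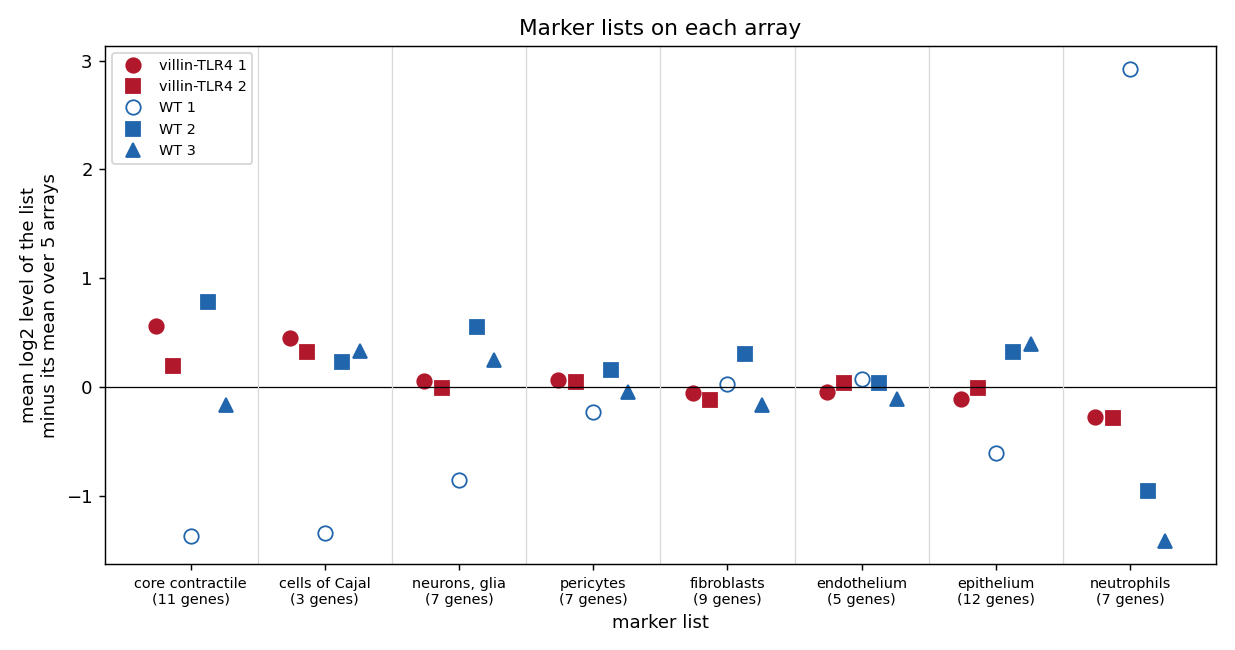
Mean log2 level of marker lists on each array, minus the list's mean over the 5 arrays, villin-TLR4 left of WT littermate in each list, with WT littermate replicate 1 as an open circle. Smooth muscle, enteric neurons and glia and interstitial cells of Cajal are low on WT littermate replicate 1, where neutrophil markers are high.

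Neutrophil markers read the other way. Their mean over 7 measured genes was 8.43 and 8.42 in villin-TLR4 colon and 11.62, 7.75 and 7.29 in WT littermate colon, and the sum of their linear intensities was 2897 and 3175 in villin-TLR4 samples and 44977, 1690 and 1294 in WT littermates. S100a9, a calcium-binding protein of neutrophil granulocytes, read 8.94 and 7.995 in villin-TLR4 samples, against 14.33, 7.93 and 6.52 in WT littermates. The summed intensity of the smooth muscle markers on the same arrays was 86731 and 61460 in villin-TLR4 samples and 19718, 90537 and 49406 in WT littermates. Epithelial markers averaged 13.28 and 13.38 in villin-TLR4 samples and 12.78, 13.71 and 13.78 in WT littermates, also lowest on WT littermate replicate 1 but by less than the muscle markers. The part of neutrophil content, signal strength or bad spots on that array in the low muscle readings was not tested. Skeletal muscle markers, of which 4 of 14 were measured, averaged 7.16 and 7.24 in villin-TLR4 samples and 8.04, 7.40 and 7.02 in WT littermates. Of these, Casq1, Mylpf and Tnni2 were highest on WT littermate replicate 1. Their background-subtracted signals there were 84, 89 and 109, under the 75th percentile of 116 on that array. Acta1 went another way, at 7.76 and 7.52 in villin-TLR4 samples, against 7.48, 7.95 and 7.18 in WT littermates. Markers of tissues next to the colon were also unequal. The pancreas list averaged 7.31 and 7.42 in villin-TLR4 samples and 8.48, 9.75 and 12.85 in WT littermates, and the fat list 10.19 and 7.35 in villin-TLR4 samples and 7.72, 8.93 and 8.97 in WT littermates. The mesothelium list averaged 7.40 and 7.68 in villin-TLR4 samples and 8.59, 7.46 and 7.48 in WT littermates.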

How the data were processed

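Biotin-labelled cRNA from total RNA of each colon sample was detected with a streptavidin dye, 1 array per sample, per the labels' protocols. The deposited files give the foreground and background intensity of 38880 spots, read with GenePix Pro 4.1.1.4 and not normalized, per the file headers. A deposited flag score marks a spot as found, not found or bad (-100), per the file headers. The authors' value table holds a linear ratio to the geometric mean of the 3 WT littermate arrays, as a comparison with the scanner values showed.

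Background was corrected by the normexp method of limma 3.58.1 (R 4.3.3), with an offset of 50. Bad spots were set to missing, 3802 control spots were left out, and log2 values were quantile normalized. Probes were named through RefSeq accessions (23071 of 35078), and kept if found on at least 2 arrays. The probe with the highest mean stood for a gene, which chose among several for 14 of the contractile genes. The comparison of villin-TLR4 with WT littermates used a two-sided moderated test in limma (lmFit, then eBayes), and p-values were adjusted by Benjamini-Hochberg across the 15051 genes or unnamed probes kept. The code was tested on simulated data. Since no label ties each sample to a separate mouse, the p-values reflect only how far these samples spread, which may be technical; the small number of arrays limits the precision.

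All 35 genes of the set were to be named, with up to 3 genes of each marker list by lowest unadjusted p, or the most abundant ones. Rhoa, Rock1 and Myl6 were chosen after their values were seen. The genes and lists were chosen with earlier results of these data known. Alternatives covered background correction, the normexp offset, 75th percentile scaling, the probe filter, the mean of all probes, scan day and replicate number as blocks, the authors' table, and leaving out each array.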

Additional observations from a re-analysis of the deposited data

How the results depend on the processing

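The normexp offset of 16, no probe filter and a filter on all 5 arrays (which left 23 of the genes) reversed the difference of 0 contractile genes. No alternative gave a contractile gene an adjusted p under 0.05. With scan day as a block, 4 genes of the array passed, the median difference of the contractile genes was -0.66, the marker mean differed by -0.59 and 2 of 30 differences were positive; villin-TLR4 replicate 1 adds nothing to that contrast, which is villin-TLR4 2 minus WT littermate 2. Over all genes the median in that fit was -0.04, and the share with a positive difference was not taken. There 24 of 30 genes reversed: Acta2 -0.84, Actg2 -0.25, Myh11 -0.77, Tpm2 -0.70, Tagln -0.57, Cnn1 -0.42, Cald1 -0.78, Smtn -0.64, Lmod1 -0.45, Mylk -0.73, Ppp1r14a -0.38, Prkg1 -0.22, Des -0.77, Synm -1.12, Synpo2 -0.17, Pgm5 -0.71, Csrp1 -0.68, Pdlim3 -1, Pdlim7 -0.37, Ldb3 0.12, Fhl1 -0.56, Kcnmb1 -0.29, Ckb -0.70 and Srf -0.49. With 75th percentile scaling, 1 of the 30 genes had groups that did not overlap (23% of all genes), and Cnn1 (-0.12), Cald1 (-0.16) and Kcnmb1 (-0.17) reversed. In the authors' deposited table the groups of 3 of the 30 genes did not overlap (34.3% of all genes), and Tpm1 (-0.013), Cnn1 (-0.18), Cald1 (-0.39), Pgm5 (-0.081), Kcnmb1 (-0.36) and Ckm (0.11) reversed. Averaging all probes gave -0.56 for Pdlim7, by construction: its dim probe was missing on WT littermate replicate 1, so that array's mean was the bright probe alone, while its probes differed by 0.11 and -0.13 between the groups. No background correction reversed Cacna1c (0.032) and Ckm (0.034). For these changes other than that of Pdlim7 under the mean of all probes, the cause was not tested.

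Leaving out each array in turn gave 0 genes of the array past the adjusted threshold, a median from -0.019 (without WT littermate 1) to 0.69 (without WT littermate 2), 15 to 29 positive differences, 0 to 9 contractile genes with an unadjusted p under 0.05, and 0 to 18 without overlap (39.5 to 48.7% of all genes). Single genes that reversed ranged from -0.44 to 0.62 (Tagln), -0.09 to 0.33 (Cnn1), -0.27 to 0.36 (Cald1), -0.16 to 1.38 (Mylk), -0.33 to 0.85 (Des), -0.085 to 1.45 (Synm), -0.37 to 0.19 (Vcl), -0.14 to 0.74 (Pgm5), -0.22 to 1.00 (Pdlim3), -0.09 to 0.29 (Pdlim7), -0.067 to 0.64 (Fhl1), -0.20 to 0.10 (Cacna1c), -0.17 to 0.46 (Kcnmb1), -0.53 to 0.33 (Ckm), -1.29 to 0.52 (Hspb7), -0.61 to 0.25 (Myocd) and -0.051 to 0.32 (Srf). Where villin-TLR4 kept 1 sample, it was assumed to vary like the WT littermates.

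With the replicate number as a block, 20 genes of the array passed the adjusted threshold, the median of the contractile genes was 0.31, and Tagln (-0.57), Cald1 (-0.026), Pdlim7 (-0.09), Hspb7 (0.12) and Srf (-0.022) reversed. Same-numbered samples did not deviate together (r = -0.15 for number 1 and -0.21 for number 2 across 14605 genes, which are not independent), so they share a number only. Weak signal on WT littermate replicate 1, where 23 of 30 contractile probes were found, limits what that array shows.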
